A study of Mus musculus with 12 samples.

Results

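Tetraspanin genes and the sialomucin gene Cd164 were followed in microglia, the resident macrophages of the brain, sorted from the hippocampus of male Balbc mice on postnatal day 28. The 5 genes, Cd9, Cd53, Cd81, Cd82 and Cd164, were chosen by name from the 545 immune genes of a NanoString nCounter panel, in which fluorescent barcodes are counted per transcript. The BDS pups had undergone brief daily separation, 15 min a day away from the mother from postnatal day 1 to 21, and were compared with control pups of the same age, sex and strain. Each group held 6 samples from different litters, so replicates are biological. Microglia of both groups were isolated by a Percoll gradient and sorting. The sort gate is not described in the labels. The 5 genes were picked with results of this same contrast in view: Cd82 and Cd164 had stood out as lower in BDS, and Cd81 and Cd164 as abundant. Their levels and differences between the groups are therefore given as a description, with no test of these genes.

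Tetraspanins are small proteins that cross the cell membrane several times and gather other membrane proteins, such as integrins and immune receptors, into patches on the cell surface. Through these patches they shape adhesion, migration, membrane fusion and antigen presentation in leukocytes, and several of them are sorted into extracellular vesicles. Cd9 binds integrins and is needed on the egg for fusion with sperm. Cd53 is largely restricted to leukocytes. Cd81 is made by immune and many non-immune cells. Cd82, also called Kai1, restrains cell motility and is known as a suppressor of metastasis. Cd164 is not a tetraspanin: it is a heavily glycosylated sialomucin of endosomes, lysosomes and the cell surface, described in human blood progenitors as a partner of the chemokine receptor CXCR4.

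All 5 genes lay above the background line (mean plus 2 SD of the negative-control probes) in 12 of 12 samples, so none owed its place among the 357 tested genes to a single group. The lowest count of any of them was 449, for Cd53 in BDS 21, with a 95% Poisson interval of 408 to 493, which covers counting error only. The largest signals were those of Cd81 and Cd164, which ranked 3 and 5 of 357 by mean normalized count and took 7.00% and 3.95% of all endogenous counts. Cd82, Cd9 and Cd53 ranked 67, 83 and 106. Each gene is read by its own probe and amplification primers, so these ranks do not order the transcripts by abundance.

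The promoter sequences of the genes are shown to set Cd82 and Cd164, whose profiles over the samples ran together, beside the other 3. They come from RefSeq (GRCm38.p6), where 5 of 5 genes were matched, and run 5′ to 3′ on the gene's strand from 100 bases before the annotated start to 20 bases after it. Of the 4 starts listed for Cd82 the outermost is shown. Capitals mark 4 motifs searched on both strands: the GC box GGGCGG, the PU.1 core GAGGAAGT, the CLEAR core TCACGTGA and the TATA box TATAAA.
Cd82: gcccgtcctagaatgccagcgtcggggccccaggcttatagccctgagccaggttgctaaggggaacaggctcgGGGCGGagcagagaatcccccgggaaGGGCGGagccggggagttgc
Cd164: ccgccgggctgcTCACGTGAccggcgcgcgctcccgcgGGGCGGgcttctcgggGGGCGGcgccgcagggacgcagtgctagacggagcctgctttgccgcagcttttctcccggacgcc
Cd53: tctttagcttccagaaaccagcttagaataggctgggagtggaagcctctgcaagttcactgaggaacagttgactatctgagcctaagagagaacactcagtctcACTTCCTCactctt
Cd81: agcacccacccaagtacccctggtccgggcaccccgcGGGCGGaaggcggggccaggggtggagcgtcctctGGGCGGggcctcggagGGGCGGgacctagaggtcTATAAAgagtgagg
Cd9: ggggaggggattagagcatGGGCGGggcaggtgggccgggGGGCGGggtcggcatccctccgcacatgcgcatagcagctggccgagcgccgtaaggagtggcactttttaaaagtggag
The windows lie at chr2:93462931-93463050 for Cd82, chr10:41519400-41519519 for Cd164, chr3:106790130-106790249 for Cd53, chr7:143052650-143052769 for Cd81 and chr6:125494741-125494860 for Cd9. Cd82, Cd53 and Cd9 lie on the minus strand, and Cd164 and Cd81 on the plus strand. The windows differed in their letters. In 300-base windows, from 250 bases before the start to 50 after it, the first Cd82 window held 2 GC boxes, Cd164 held 4, Cd81 held 3, Cd9 held 2 and Cd53 held 0, against 35.7% of all 32851 such windows with at least 1. The Cd53 window had a GC content of 46.3%, against 60.7% to 70% in the other 4 shown. The inner Cd82 starts varied in the same way: the second window held 1 GC box at a GC content of 64.7%, and the third and the fourth held 0 at 49.3% and 53%. The PU.1 core, the binding motif of a transcription factor that myeloid cells depend on, began 7 bases into the Cd53 transcript on the opposite strand. It was also found 225 bases before the third Cd82 start and in 3.2% of all windows. The CLEAR core, known from promoters of lysosomal genes, lay 88 bases before the start of Cd164 and in none of the windows of the other 4 genes, against 0.974% of all windows. A TATA box, present in 13.6% of all windows, lay 7 bases after the annotated start of Cd81. These matches describe letters and do not show binding.

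Cd82 was the tetraspanin whose groups lay apart. Its normalized counts, scaled to 6 housekeeping genes, were 3269, 2319, 2611, 3132, 3074 and 2365 in BDS 7, 21, 25, 35, 43 and 55, against 3477, 3462, 3518, 3929, 3383 and 3474 in control 5, 9, 13, 27, 44 and 54. The highest BDS value was thus under the lowest control value, a separation shared by 4 of the 357 genes (1.12%). The means were 2795 ± 415 in BDS and 3541 ± 195 in controls (SD, n = 6 each), a log2 fold change of -0.34 ± 0.10 (SE) for BDS over control, or 0.79-fold. BDS 21, BDS 25 and BDS 55 had the lowest values, at 2319 to 2611, and the other 3 BDS samples lay at 3074 to 3269. Among controls the values were close together, with a coefficient of variation of 5.51%, except for the higher control 27. In bulk RNA, fewer Cd82-expressing cells and less Cd82 RNA per cell cannot be told apart, for this and the other genes.

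Cd164 followed Cd82 closely. Its normalized counts were 37899, 30629, 27464, 34478, 36444 and 29079 in BDS 7, 21, 25, 35, 43 and 55, against 39009, 38242, 38849, 39529, 36764 and 40716 in control 5, 9, 13, 27, 44 and 54. The groups overlapped through BDS 7, which lay above control 44, and the other 5 BDS samples lay below every control. The means were 32665 ± 4219 in BDS and 38852 ± 1318 in controls (SD, n = 6 each), a log2 fold change of -0.25 ± 0.08 (SE), or 0.84-fold. The coefficient of variation was 12.9% in BDS and 3.39% in controls, the lowest of the 5 genes within controls.

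Cd53, the leukocyte tetraspanin, varied most. Its normalized counts were 1845, 738, 701, 1486, 1075 and 742 in BDS 7, 21, 25, 35, 43 and 55, against 1064, 1078, 1237, 1458, 1645 and 1554 in control 5, 9, 13, 27, 44 and 54. The BDS group held both ends: BDS 7 was the highest of the 12 samples, and BDS 21, BDS 25 and BDS 55 lay below every other sample. The means were 1098 ± 474 in BDS and 1339 ± 248 in controls (SD, n = 6 each), a log2 fold change of -0.28 ± 0.23 (SE), which is within the spread of the samples. The coefficient of variation was 43.2% in BDS and 18.5% in controls.

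Cd81 gave group means that nearly coincided. Its normalized counts were 54202, 74362, 72694, 61452, 58074 and 61092 in BDS 7, 21, 25, 35, 43 and 55, against 75388, 74707, 58602, 59817, 55913 and 54077 in control 5, 9, 13, 27, 44 and 54. In each group 2 samples stood high, BDS 21 and BDS 25 in one and control 5 and control 9 in the other, and the remaining 8 samples lay between 54077 and 61452. The means were 63646 ± 8103 in BDS and 63084 ± 9485 in controls (SD, n = 6 each), a log2 fold change of 0.01 ± 0.11 (SE).

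Cd9 likewise showed no separation of the groups. Its normalized counts were 2317, 2360, 1970, 1437, 1876 and 2365 in BDS 7, 21, 25, 35, 43 and 55, against 1823, 1950, 1866, 2202, 2045 and 2253 in control 5, 9, 13, 27, 44 and 54. BDS 35 was the lowest of all samples and BDS 55, BDS 21 and BDS 7 were the highest, so BDS enclosed the range of the controls. In BDS 55 the raw counts of Cd9 and Cd82 were the same, 2019 each. The means were 2054 ± 369 in BDS and 2023 ± 176 in controls (SD, n = 6 each), a log2 fold change of 0.02 ± 0.12 (SE).

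**Figure D1:**
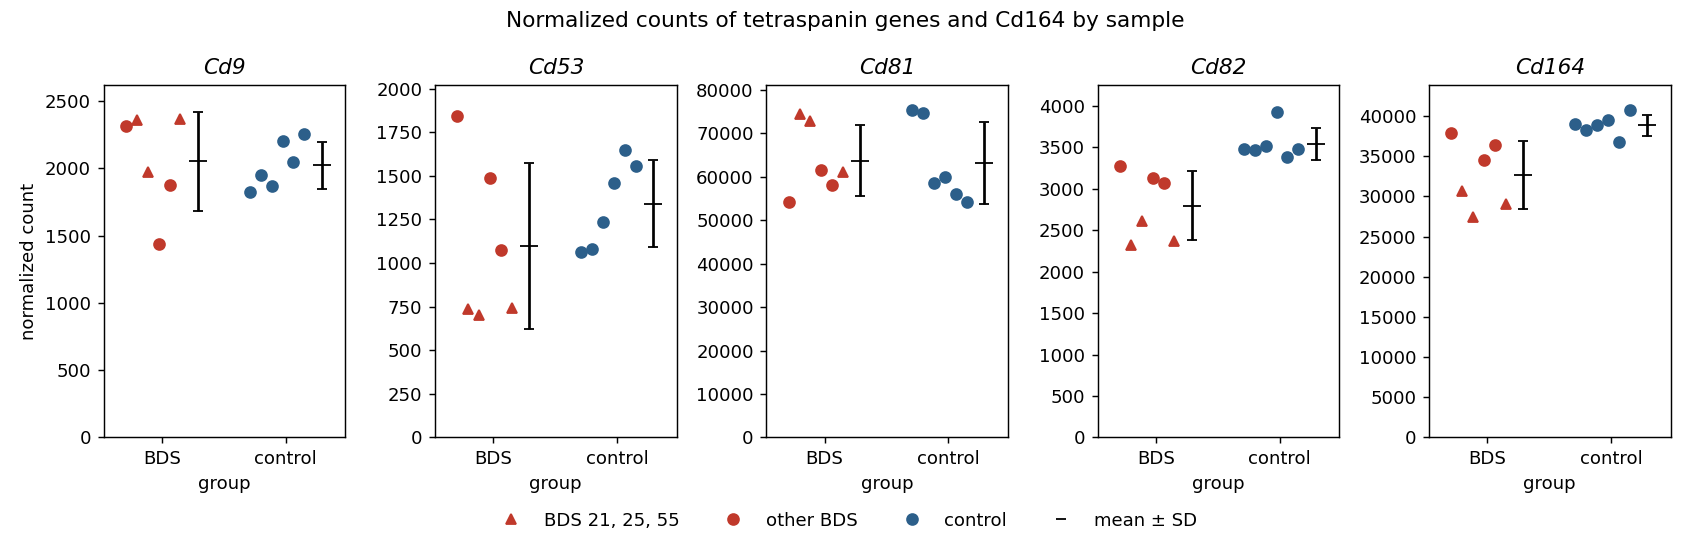
Normalized counts (linear axis from 0) of the 5 genes in each of 6 BDS and 6 control samples; points are samples in the order of their numbers, triangles are BDS 21, BDS 25 and BDS 55, and bars give the mean ± SD. The Cd82 groups lie apart, at 2319 to 3269 in BDS and 3383 to 3929 in controls, while the Cd81 and Cd9 groups cover each other.

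Across all 357 genes, 0 passed the adjusted threshold of 0.05 in the edgeR quasi-likelihood fit with Benjamini-Hochberg adjustment (0%). With DESeq2 on the same scaling 6 did (1.68% of the 357), but that fit left 189 genes without an adjusted p. With the DESeq2 filter set for 0.05, 0 passed. Before adjustment, 11.5% of all genes were lower in BDS and 0.84% higher with p below 0.05 in edgeR. The 5 genes were chosen from this contrast, so their standing in these fits is not given as a result. The log2 fold change was below 0 for 3 of the 5, with a median of -0.25, against 236 of 357 genes (66.1%) and a median of -0.10. The authors' deposited table gives folds of 0.80 for Cd82, 0.85 for Cd164, 0.83 for Cd53 and 1.02 for both Cd81 and Cd9.

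BDS 21, BDS 25 and BDS 55 stood apart from the other 9 samples in technical measures as well. Their housekeeping scaling factors were 0.61, 0.65 and 0.85, against 0.87 to 1.47 in the other 9. Their ratio of Rpl19 to Polr2a counts, a pair of housekeeping genes not used in the scaling and chosen with their values in these samples known, was 0.79, 0.61 and 0.47, against 0.11 to 0.27. Total endogenous counts were 577135 to 727203 in these 3 samples and 827591 to 1341132 in the other 9. The part of RNA amount or quality in the results was not tested. Without these 3 samples the log2 fold change was -0.17 ± 0.07 for Cd82 and -0.10 ± 0.05 for Cd164, and its sign turned for Cd53 (0.13 ± 0.19), Cd81 (-0.12 ± 0.12) and Cd9 (-0.11 ± 0.14; all SE, edgeR). With the Rpl19 to Polr2a ratio as a covariate, the values were -0.17 ± 0.08 for Cd82, -0.11 ± 0.07 for Cd164, 0.19 ± 0.13 for Cd53 and -0.20 ± 0.08 for Cd81.

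The scaling moved the size of the difference for Cd82 and Cd164 but not its sign. Both had been chosen as lower in this contrast, so the kept sign is no separate support. TMM, which scales to the tested genes themselves, gave -0.25 ± 0.10 for Cd82 and -0.16 ± 0.08 for Cd164 (SE) while moving the median of all genes from -0.10 to -0.01. Relative to the panel median, Cd82 thus lay 0.24 lower with the housekeeping genes. The gap between the Cd82 groups was narrow. With the 5 housekeeping genes that leave out Sdha the highest BDS value was 3255, below the lowest control at 3322, but with TMM the BDS values reached 3347, above the lowest control at 3064. The groups also overlapped for Cd82 with all 14 housekeeping genes and with the total count.

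**Figure D2:**
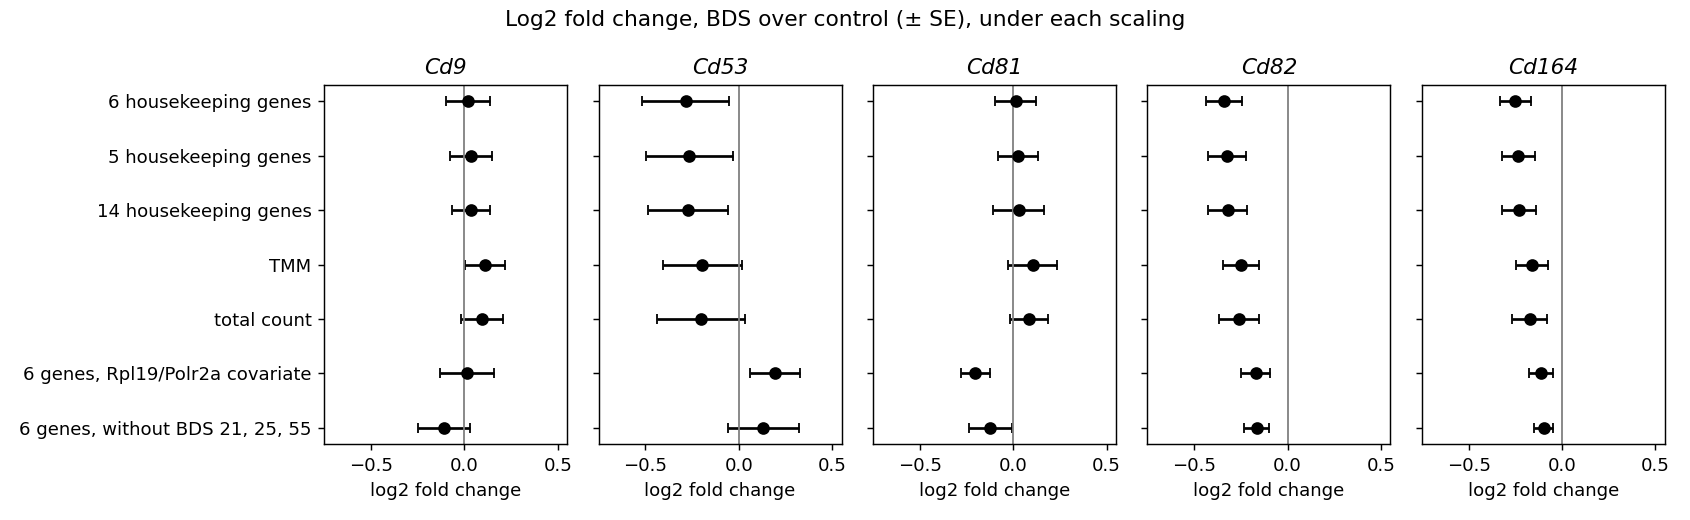
Log2 fold change (BDS over control, x axis) with its SE from edgeR for each of the 5 genes under 5 scalings, with a covariate, and without BDS 21, BDS 25 and BDS 55 (y axis). Cd82 and Cd164 stay below 0 in all 7 settings drawn, while Cd53 moves above 0 and Cd81 below 0 in the last 2.

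The ratio of 2 genes within a sample is free of any scaling, and it showed how the 5 genes moved against each other. The Cd82 to Cd164 ratio was the steadiest of the 10 pairs. Its log2 value was -3.55 ± 0.12 in BDS and -3.46 ± 0.07 in controls (SD, n = 6 each), and its SD over all 12 samples was 0.10, against 0.30 to 0.63 for the other 9 pairs. The log2 differences of both genes from their control means were largest in the same 3 samples, at -0.61, -0.44 and -0.58 for Cd82 and -0.34, -0.50 and -0.42 for Cd164 in BDS 21, 25 and 55. There were 0.0757 Cd82 counts per Cd164 count in BDS 21, the lowest sample, and 0.0994 in control 27, the highest.

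Cd53 and Cd81 were at opposite ends in many, but not all, samples. Their log2 ratio, Cd53 to Cd81, was -4.88, -6.66, -6.70, -5.37, -5.76 and -6.36 in BDS 7, 21, 25, 35, 43 and 55, against -6.15, -6.12, -5.57, -5.36, -5.09 and -5.12 in control 5, 9, 13, 27, 44 and 54. The groups overlapped, with -5.95 ± 0.74 in BDS and -5.57 ± 0.47 in controls (SD, n = 6 each). Among the controls, control 5 and control 9 had the highest Cd81 and the lowest Cd53 of their group, and control 44 and control 54 the lowest Cd81 and the highest Cd53. In BDS, BDS 7 combined the highest Cd53 with the lowest Cd81, and BDS 21 and BDS 25, with the lowest Cd53, had the highest Cd81. BDS 43 was below the control mean in both genes, at -0.30 for Cd53 and -0.11 for Cd81 on the log2 scale, and BDS 55 had a low Cd53, at -0.83, with Cd81 near the control mean, at -0.03. The Rpl19 to Polr2a ratio tended to run opposite to the Cd53 to Cd81 ratio. Among the controls it was 0.23 and 0.27 in control 5 and control 9, and 0.15 and 0.12 in control 44 and control 54. It was 0.18 in control 13 and lowest, at 0.11, in control 27. In BDS it was 0.79, 0.61 and 0.47 in BDS 21, 25 and 55, 0.26 and 0.22 in BDS 35 and 43, and 0.13 in BDS 7. The part of the Rpl19 to Polr2a ratio in the pattern was not tested.

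**Figure D3:**
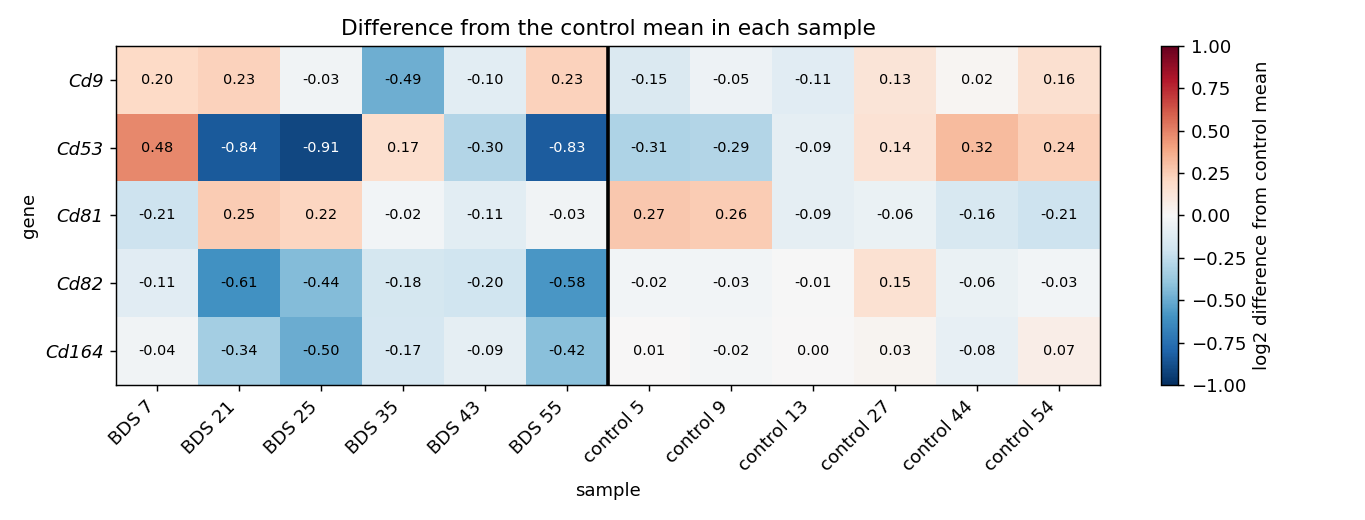
Log2 difference of each of the 5 genes (rows) from its mean over the controls, in 6 BDS and 6 control samples (columns), with colour from -1 to 1. Cd53 reaches -0.84, -0.91 and -0.83 in BDS 21, BDS 25 and BDS 55, where Cd82 and Cd164 are also low and Cd81 is at 0.25, 0.22 and -0.03.

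**Figure D4:**
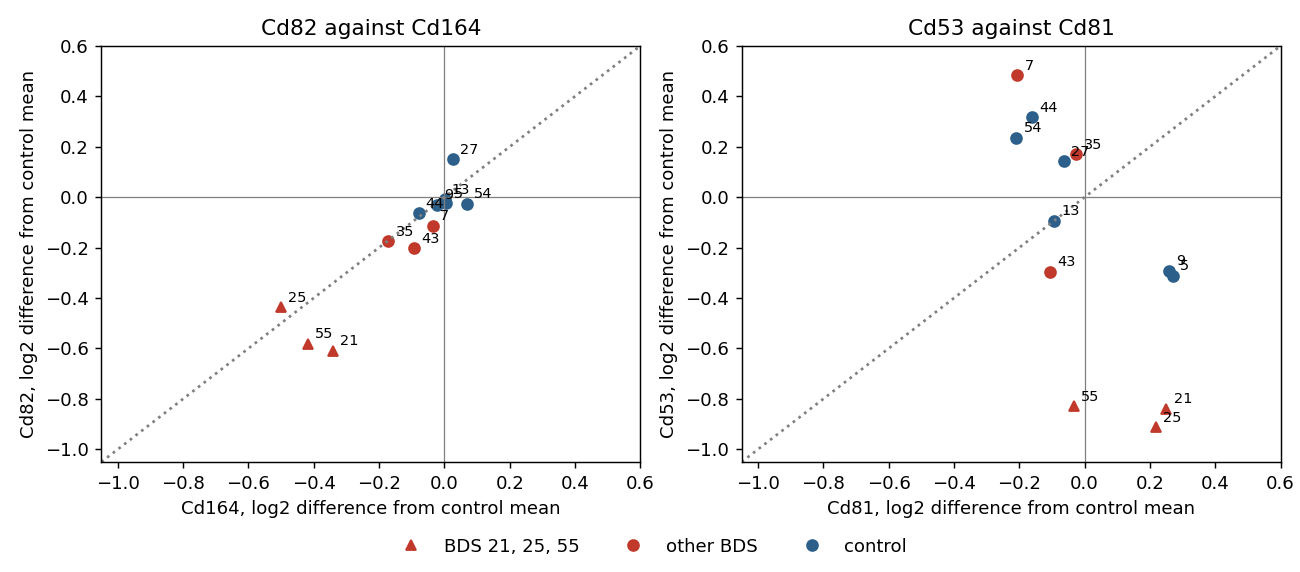
Log2 differences from the control mean for Cd82 against Cd164 (left) and Cd53 against Cd81 (right); each point is a sample with its number, triangles are BDS 21, BDS 25 and BDS 55, and the dotted line marks equal differences. Cd82 and Cd164 lie along the line, and Cd53 and Cd81 do not.

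Genes whose profile over the 12 samples was most like each member were ranked by the mean absolute difference of their log2 deviations. Nearest to Cd82 were Tgfbr2, a receptor of TGF-beta (0.062), Cmklr1, the chemerin receptor (0.068), and Il6st, the signalling chain of the interleukin-6 receptor family (0.071), where the median over the other 356 genes was 0.27. Nearest to Cd164 were the chemokine receptor Ccr6 (0.047), Tgfbr2 (0.051) and Cmklr1 (0.054). Cd164 itself ranked 6 among the genes like Cd82, at 0.080, and Cd82 ranked 9 among those like Cd164. Tgfbr2 averaged 15381 ± 2371 normalized counts in BDS and 19043 ± 633 in controls (SD, n = 6 each). Its groups also lay apart with the 6 housekeeping genes. The ranking used the same 12 samples, group difference included, so this likeness is no separate support for a difference. With TMM or the total count, 0 genes had all BDS samples below all controls.

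Cd81 was tracked most closely by Ifngr1, a chain of the interferon-gamma receptor, at a mean difference of 0.029 log2 units. Ifngr1 averaged 11788 ± 1426 normalized counts in BDS and 11678 ± 1551 in controls (SD, n = 6 each). Ptpn6, a phosphatase of immune receptors (0.064), and C1qbp (0.068) came next. Cd9 had Tal1, a blood transcription factor (0.078), Tnfrsf1b, a receptor of tumour necrosis factor (0.081), and Ly86, a partner of a Toll-like receptor relative (0.088) as its nearest genes. The nearest to Cd53 were farther away in log2 units and included Tcf4, a transcription factor (0.14), and the Toll-like receptor gene Tlr1 (0.15). The median over the other genes was also larger for Cd53, at 0.41, against 0.26 for Cd9 and 0.29 for Cd81.

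Known partners of tetraspanins were then described from lists set with earlier results known. Of 12 integrin chains, 9 were on the panel and 8 were tested; 6 had log2 fold changes below 0, with a median of -0.16, against 66.1% and -0.10 over all genes. With an unadjusted p below 0.05, 1 of the 8 was lower, against 11.5% of all genes, and 0 were called after adjustment (edgeR), so the list stood near the background. That gene was Itgb1, the beta-1 chain with which Cd9, Cd81 and Cd82 associate, at 5741 ± 479 normalized counts in BDS and 6591 ± 273 in controls (SD, n = 6 each; log2 fold change -0.20 ± 0.07, SE). Itga6, the alpha chain of laminin receptors, was at 8894 ± 2044 in BDS and 10858 ± 1341 in controls. Itgb2, the beta chain of leukocyte integrins, was at 2045 ± 184 in BDS and 2294 ± 340 in controls. The 2 chains not below 0 were Itgax, at 113 ± 28 in BDS and 107 ± 16 in controls, and Itga4, at 40.5 ± 13.3 in BDS and 40.9 ± 7.1 in controls. Without BDS 21, BDS 25 and BDS 55, 7 of the 8 were below 0, against 260 of the 357 genes. The list median was then -0.07, against -0.09 over all genes. In that fit 0 of the 8 had an unadjusted p below 0.05, against 20 of the 357 genes (edgeR).

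Of 11 other surface partners, 6 were tested, 4 of them with log2 fold changes below 0 (66.1% of all genes) and a list median of -0.21 (-0.10 over all genes). All 4 were lower with an unadjusted p below 0.05 (11.5% of all genes), and 0 were called after adjustment (edgeR). This list too was set with earlier results of these data known, so nothing is read from that share. Notch1, a receptor of cell contact signals whose processing tetraspanins influence, was at 1821 ± 341 normalized counts in BDS and 2300 ± 118 in controls (SD, n = 6 each). Ptprc, the leukocyte phosphatase CD45, was at 3887 ± 652 in BDS and 4718 ± 387 in controls. Fcgr1, a receptor for antibody, was at 12766 ± 576 in BDS and 14015 ± 449 in controls. Fcgr2b, the inhibitory antibody receptor, was at 3726 ± 909 in BDS and 4687 ± 839 in controls. Icam1 and Cd36 were not lower. Icam1, an adhesion ligand of leukocyte integrins, was at 1889 ± 314 in BDS and 1782 ± 191 in controls. Cd36, a scavenger receptor, was at 24.5 ± 3.9 in BDS and 21.3 ± 3.8 in controls, near the background line. With TMM 1 of the 6 was lower with an unadjusted p below 0.05 (3.92% of all genes). Without BDS 21, BDS 25 and BDS 55, 0 of the 6 were, against 20 of the 357 genes.

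The tested genes of the CXCR4 axis and of the T cell coreceptors had low counts. The chemokine receptor Cxcr4 was at 30.5 ± 11.7 normalized counts in BDS and 25.9 ± 6.3 in controls, and its ligand Cxcl12 at 34.5 ± 16.0 in BDS and 36.9 ± 11.1 in controls (SD, n = 6 each), both near the background line, which on the normalized scale was 16.0 to 30.8 in BDS and 12.7 to 19.2 in controls. The T cell coreceptor genes Cd4 and Cd8b1 were tested, at 18.7 ± 4.2 and 19.3 ± 4.7 in BDS and at 19.8 ± 5.8 and 17.6 ± 4.0 in controls, likewise near that line. Of 10 MHC class II presentation genes, which tetraspanins cluster on antigen-presenting cells, 7 were tested. Of these, 4 had log2 fold changes below 0 (66.1% of all genes), with a median of -0.08 (-0.10 over all genes), again near the background. With an unadjusted p below 0.05, 1 of the 7 was lower, against 11.5% of all genes, and 0 were called after adjustment (edgeR). That gene was H2-Ob, at 623 ± 86 normalized counts in BDS and 753 ± 80 in controls. H2-Ab1 was not lower, at 636 ± 74 in BDS and 615 ± 136 in controls. With TMM 0 of the 7 were lower and 1 higher at that p, against 14 and 18 of the 357 genes. Cd74, the invariant chain, was at 62.9 ± 6.2 in BDS and 72.7 ± 26.0 in controls. H2-Ea-ps was at 21.8 ± 5.0 in BDS and 16.3 ± 4.0 in controls, near the background line.

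The label of the cells was checked against markers. All 9 microglia markers were above background in enough samples to be tested, and their summed normalized counts were 289174 to 381571 in BDS and 297986 to 327962 in controls. Of 12 B cell markers on the panel 6 were tested, with sums of 4342 to 6022 in BDS and 4496 to 5191 in controls, and Pax5 and Cd22 were among those above background in 0 samples. Most of that sum was Blnk, at 3462 ± 372 in BDS and 3078 ± 155 in controls (SD, n = 6 each). Of 12 T cell markers 5 were tested, with sums of 504 to 613 in BDS and 502 to 593 in controls, most of it Cd27 at 381 ± 56 in BDS and 377 ± 26 in controls, and Cd3d and Cd3e were above background in 0 samples. The neutrophil sums of 3074 to 3672 in BDS and 3114 to 3709 in controls were nearly all Csf3r, at 3315 ± 222 in BDS and 3294 ± 217 in controls, while S100a8 was at 16.8 ± 8.4 in BDS and 16.5 ± 6.3 in controls and Cxcr2 and Camp were above background in 0 samples. The endothelial and platelet markers, of which 3 of 4 were tested, summed to 966 to 1320 in BDS and 992 to 1370 in controls. The sums were 194 to 285 in BDS and 194 to 456 in controls for NK cells, 245 to 444 in BDS and 285 to 493 in controls for blood monocytes and border macrophages, and 114 to 184 in BDS and 123 to 243 in controls for neurons and other glia. Among all these markers, 4 had an unadjusted p below 0.05 and 0 an adjusted one (edgeR). They were 1 of 6 tested for B cells, 1 of 5 for T cells, 1 of 1 for blood monocytes and 1 of 3 for endothelium. For microglia it was 0 of 9, for NK cells 0 of 3, and for neutrophils and for neurons and other glia 0 of 2 each. Over all genes 11.5% were lower and 0.84% higher at that p, so no shift of a cell type is read from these 4. The T cell kinase gene Lck was lower, at 23.7 ± 4.5 in BDS and 34.3 ± 6.5 in controls. Its BDS mean lay within the range of the normalized background line there, 16.0 to 30.8, against 12.7 to 19.2 in controls. Ccr2, a chemokine receptor of blood monocytes, was lower, at 292 ± 73 in BDS and 377 ± 76 in controls, as was the endothelial cadherin gene Cdh5, at 116 ± 17 in BDS and 145 ± 23 in controls. Tnfrsf13b, a receptor of B cells, was higher, at 40.7 ± 15.1 in BDS and 26.5 ± 2.5 in controls. These means were not far above the background line, which reached 30.8 in BDS and 19.2 in controls. The part of that line in the difference was not tested. The part of other cell types in the results was not tested.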

How the data were processed

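Transcripts had been counted on a NanoString nCounter mouse immune panel from 2 ng of RNA, converted to cDNA and amplified in 5 rounds of PCR, per the labels' protocols. The first deposited table gives raw barcode counts as whole numbers. The second gives values that the authors normalized on positive control probes and on housekeeping genes, per the design text, and rounded. These are treated here as scores and come with the authors' deposited group means (scores), percent of samples above background, fold (a linear ratio) and unadjusted p-value. The barcode reader is not named in those sources.

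Size factors were geometric means over 6 housekeeping genes (Tbp, Sdha, Polr1b, Oaz1, Gapdh and Alas1) in each sample, centred on 1 over the samples. A gene was tested if at least 40% of samples (5 of 12) exceeded the line set by the negative-control probes, their mean plus 2 SD. For BDS against control (6 samples each, no covariates), edgeR 4.0.16 in R 4.3.3 was run with its quasi-likelihood test and Benjamini-Hochberg adjustment over 357 genes. Alternatives used other scalings and filters, DESeq2 1.42.0, limma 3.58.1 on log2 values with pseudocounts of 1 and 10, a covariate, and samples left out. No 2 samples of a group agreed within sampling noise (chi-square per degree of freedom at least 7.51). The members, lists and most alternatives were chosen with earlier results of these data known. All 5 members were named, with the 3 nearest genes each and up to 3 partners per list by smallest p, apart from a few genes left out of this text. Some further partners were also named. The files name no genome build; promoters and coordinates are RefSeq's on GRCm38.p6, matched by symbol, and the accessions of 5 of 5 members were found there.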

Additional observations from a re-analysis of the deposited data

Results flagged for a closer look

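Control 27 stood far above the other 5 controls for Cd82, at 3929 normalized counts. The gap to the next control was 0.75 of the range of the group. Of 28 measures, each in 2 groups, this was the only one with such a sample, and chance alone gives one in about 1 of 20 groups. Without control 27 the log2 fold change of Cd82 was -0.31 ± 0.10 (SE, edgeR).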

How the results depend on the processing

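For Cd82 and Cd164 the log2 fold change was below 0 in all 26 alternatives each, from -0.39 to -0.17 for Cd82 and from -0.30 to -0.10 for Cd164. Both genes had been chosen as lower in this contrast, and the alternatives reuse its samples, so the shared sign is no separate support. With DESeq2 on housekeeping size factors the value for Cd82 was -0.34, and 6 genes, Cd82 among them, passed the adjusted threshold in place of 0, from which nothing is read for a gene chosen on this contrast; with the DESeq2 filter set for 0.05, an alternative chosen after seeing the data, 0 passed. Without BDS 21, BDS 25 and BDS 55 the value was -0.11 for Cd9, 0.13 for Cd53 and -0.12 for Cd81, and with the Rpl19 to Polr2a covariate 0.19 for Cd53 and -0.20 for Cd81; the cause was not tested. With each sample left out in turn, Cd9 ran from -0.023 to 0.11, Cd81 from -0.037 to 0.070 and Cd53 from -0.50 (without BDS 7) to -0.18, and 0 to 4 genes passed the adjusted threshold, 4 of them without BDS 7. Genes with separate groups numbered 4, all lower in BDS, but 1 with TMM, which was higher in BDS, with none lower. They numbered 0 with the total count, 2 with 5 housekeeping genes, 1 with 14 and 2 with the deposited scores. Without the 3 BDS samples there were 14 (all lower). With 1 sample left out there were 4 to 17, the most without BDS 7 (17) and control 9 (12). Smaller groups separate more easily, so counts with samples left out cannot be compared with the 4. Genes with an unadjusted p below 0.05 numbered 41 lower and 3 higher, against 14 and 18 with TMM, 20 and 0 without the 3 samples, and 88 and 8 without BDS 7. Without the 3 samples the log2 ratio, BDS minus control, moved from 0.38 to -0.25 for Cd9 to Cd53, from 0.36 to 0.033 for Cd9 to Cd82, from 0.26 to -0.032 for Cd9 to Cd164 and from 0.37 to 0.051 for Cd81 to Cd82. No paired analysis was possible because the groups share no replicate numbers. All 5 genes had at least 449 counts in every sample; counts follow amplification, so they are not independent molecules and counting intervals cover counting error only.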
